A study of Mus musculus with 19 samples.

Results

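The genes described here handle iron and heme in the mouse brain. Fth1 and Ftl1 serve iron storage, and Ncoa4 serves the release of stored iron. Tfrc, Slc11a1 and Slc11a2 import iron or move it out of endosomes. Slc40a1 exports it, Hmox1 breaks heme down, and Blvrb encodes a biliverdin and flavin reductase. These genes were taken by name from a list drawn up with earlier results of these data known. The rule itself used no measured value. All 9 were present in both deposited tables, of 15634 genes listed for hippocampus and 13783 listed for sorted brain cells.

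All mice were irradiated with a split dose of 1100 cGy to the whole body and received 5000000 T-cell-depleted (TCD) bone marrow cells, so every group, controls included, carried both of these treatments. Mice of the graft-versus-host disease (GVHD) groups also received 500000 splenic T cells, and TCD mice did not. Whole hippocampus was taken on day 80 from 3 GVHD and 3 TCD mice, while cells sorted from the brain on day 70 gave 13 libraries. Of these, 6 were of macrophages derived from the donor marrow in GVHD mice, 4 of host microglia in GVHD mice and 3 of host microglia in TCD mice. The labels used here gave no strain, age, sex or genotype, and whether each sorted library came from a separate mouse was not stated, so p-values measure the spread between libraries.

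Donor macrophages and host microglia differed in the genome they came from and in whether they had been irradiated, as well as in cell origin, and these cannot be told apart. The description field of TCD host library 1 carried "Syn" where the other TCD host libraries carried TCD, so its transplant group was uncertain. In each sorted group, library 1 was the only one to carry the lower of the API numbers found in the titles. The meaning of that number was not stated, and it entered the models as a covariate. Values are normalised counts, with an estimated 16673616 to 18546936 reads in the hippocampal libraries and 7901523 to 35844769 in the sorted ones. Summed over 8 microglial markers, the sorted host libraries held 41854 to 60331 and the donor libraries 12264 to 17754. Summed over 7 markers of marrow-derived brain macrophages, the order was the opposite, with the donor range from 124840 to 149940 and the host range from 2562 to 18484.

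Cells take up transferrin-bound iron through the transferrin receptor, release it from endosomes through divalent metal transporters, and store what is not used inside a shell of ferritin heavy and light chains. Ferroportin is the known cellular exporter of iron, and heme oxygenase frees iron from heme, with biliverdin reductases acting on the product. Macrophages recycle iron from engulfed red cells by this route, and microglia are the resident macrophages of the brain. Iron regulatory proteins bind a stem-loop, the iron-responsive element, in some of these mRNAs: in a 5′ UTR, binding when iron is low blocks translation, and in the 3′ UTR of the transferrin receptor it protects the mRNA from decay.

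The annotated transcripts of 4 of the 9 genes held a match to a strict form of the core of this element. These are shown because they mark which members hold that form in their annotated mRNA. The motif searched was a C, then 5 bases of stem, then the loop CAGTGN, then 5 bases that pair with the first 5, with G-T pairs allowed, on the transcript strand only. Capitals mark the loop, and the sequences are 5′ to 3′ on the transcript strand, from the GRCm38 genome with GENCODE gene models.
Fth1 5′ UTR: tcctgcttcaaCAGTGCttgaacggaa
Ftl1 5′ UTR: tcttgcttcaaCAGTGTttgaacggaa
Slc40a1 5′ UTR: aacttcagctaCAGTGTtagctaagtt
Tfrc 3′ UTR element 1: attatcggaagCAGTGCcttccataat
Tfrc 3′ UTR element 2: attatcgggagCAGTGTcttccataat
Tfrc 3′ UTR element 3: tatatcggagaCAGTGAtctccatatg
Tfrc 3′ UTR element 4: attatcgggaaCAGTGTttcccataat

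The Fth1 match lay at chr19:9982733-9982759 on the plus strand, the Ftl1 match at chr7:45459780-45459806 on the minus strand, and the Slc40a1 match at chr1:45925466-45925492 on the minus strand, each within a 5′ UTR exon. In Tfrc the matches lay on the plus strand of chromosome 16 at chr16:32631220-32631246, chr16:32631599-32631625, chr16:32631664-32631690 and chr16:32631711-32631737, all in the 3′ UTR. The same letters occurred in the 5′ UTR of 28 of 20873 genes (0.134%) and in the 3′ UTR of 127 of 20981 genes (0.605%). No match was found in the UTRs of the transcripts scanned for Hmox1, Slc11a1, Slc11a2, Blvrb and Ncoa4, which says only that these letters are not there. A match is a description of the sequence, and binding was not measured.

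Donor macrophages held more ferritin, Hmox1, Blvrb and Slc11a1 mRNA than host microglia of the same disease group, and much less Slc40a1 and Tfrc mRNA. In a limma model with p-values adjusted by Benjamini-Hochberg over the 13086 genes tested, 8 of the 9 genes passed an adjusted p of 0.05, 6 of them higher and 2 lower in donor macrophages. This stood beside 38.6% of all tested genes called in either direction, 19.4% higher and 19.2% lower. The median log2 difference was 0.50 over the 9 genes and 0.04 over all tested genes. For the 8 called genes the donor and GVHD host libraries did not overlap, against 27.9% of all tested genes. All differences below are donor macrophages minus GVHD host microglia on the scale of log2(value + 1), with their standard error, and adjusted p-values are from limma.

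**Figure D1:**
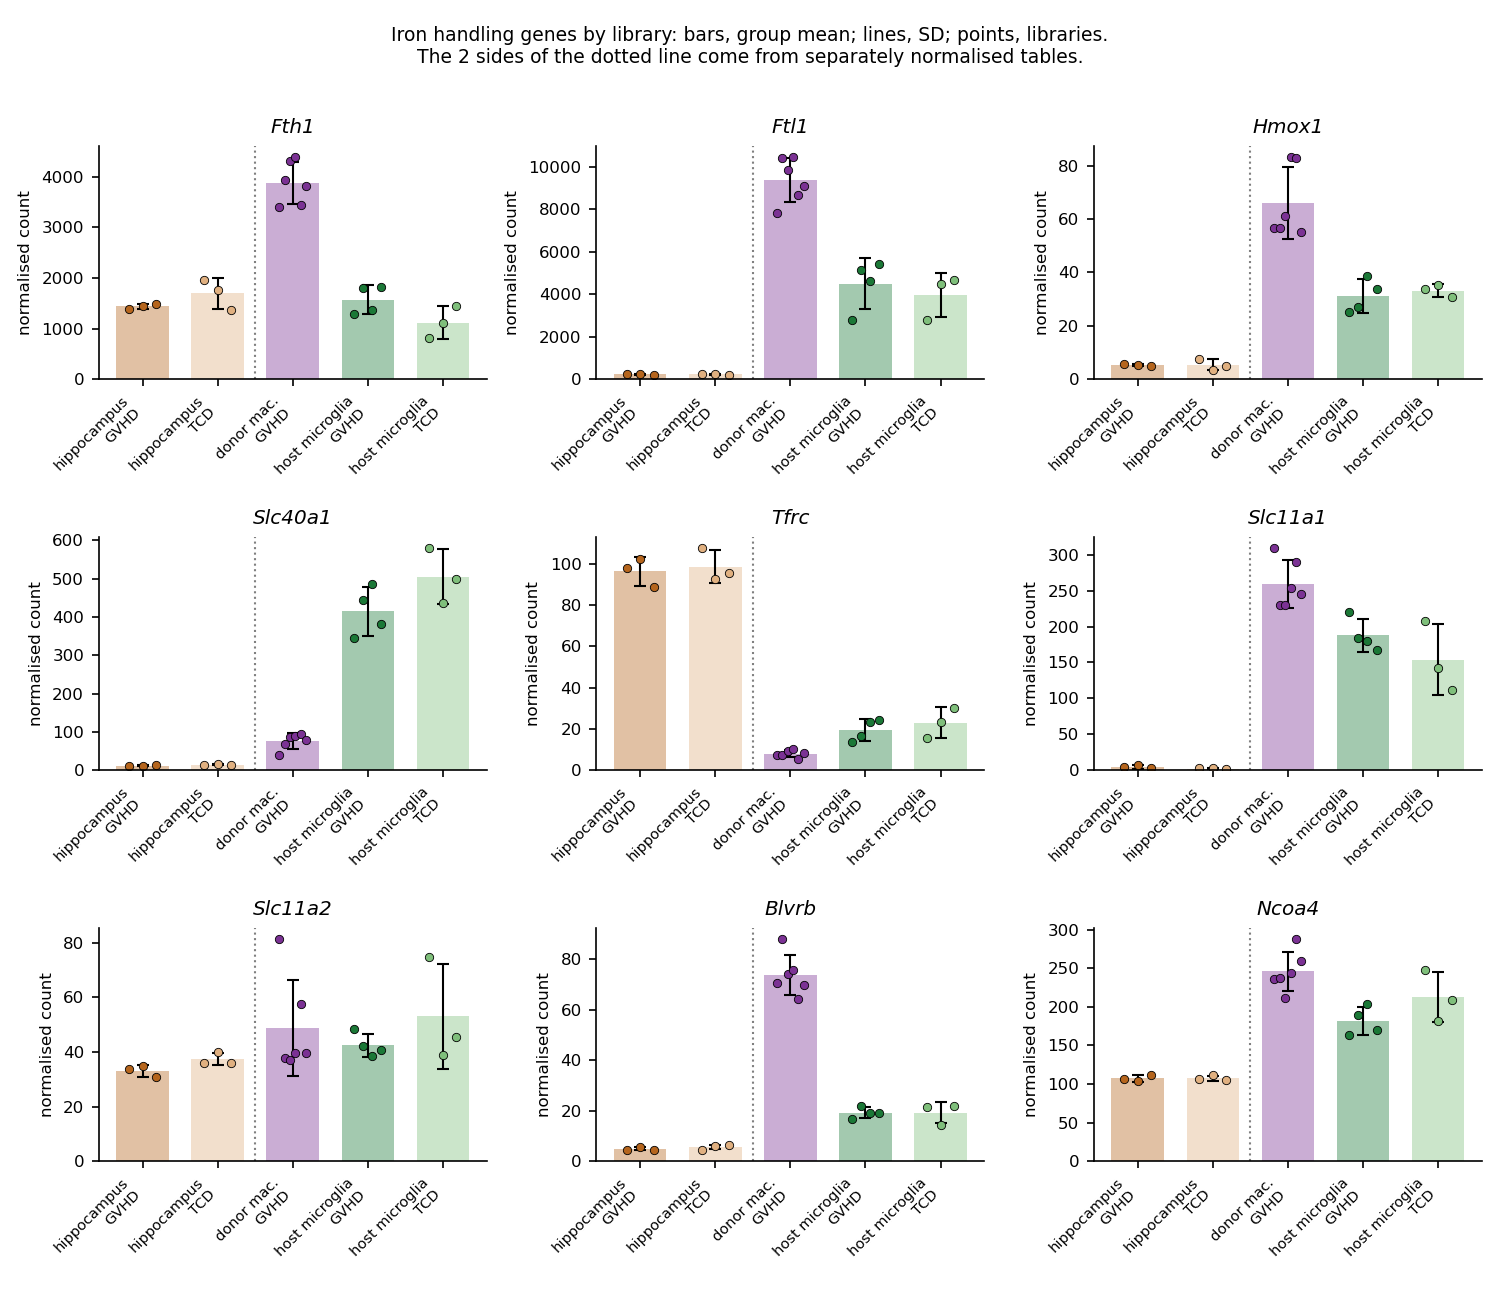
Normalised counts of the 9 genes in every library (points), with the group mean (bars) and SD (lines), for hippocampus of GVHD and TCD mice and for sorted donor macrophages, GVHD host microglia and TCD host microglia. The vertical axes start at 0, and the 2 sides of each dotted line come from separately normalised tables. Donor macrophages lie above both microglial groups for Fth1, Ftl1, Hmox1 and Blvrb and below them for Slc40a1 and Tfrc.

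Fth1 (ENSMUSG00000024661, chr19:9980598-9985098, plus strand) encodes the ferritin heavy chain, which oxidises ferrous iron for storage. Its normalised count ran from 3405 to 4395 over the 6 donor libraries, with a median of 3877. It was 1290, 1796, 1369 and 1828 in GVHD host libraries 1 to 4 and 804, 1102 and 1444 in TCD host libraries 1 to 3. The lowest donor library lay above the highest library of either microglial group. The log2 difference was 1.28 ± 0.13, a 2.43-fold higher value (adjusted p = 5.17e-06).

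Ftl1 (ENSMUSG00000050708, chr7:45457944-45459884, minus strand) encodes the ferritin light chain, which supports formation of the iron core. Its normalised count ran from 7817 to 10470 in donor macrophages, with a median of 9466. GVHD host libraries held 2791, 5132, 4638 and 5440, and TCD host libraries 2785, 4475 and 4647. Donor libraries stood above all host libraries, and library 1 was the lowest of its group in all 3 sorted groups. On the log2 scale it differed by 1.05 ± 0.12, 2.07-fold higher (adjusted p = 1.80e-05), and under quantile normalisation it was 0.69 and still called.

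The tables listed Ftl1-ps1, a processed copy of Ftl1, as a gene of its own, and reads shared by the copies may have been divided between them. It held 1444 ± 146 (SD, n = 6) in donor macrophages, 659 ± 176 (SD, n = 4) in GVHD host microglia and 583 ± 144 (SD, n = 3) in TCD host microglia. Its log2 difference of 1.12 ± 0.11 (adjusted p = 4.13e-06, limma) was close in size to that of Ftl1. The Ftl1 level is therefore uncertain by the share of reads given to this copy.

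Ncoa4 (ENSMUSG00000056234, chr14:32159865-32179855, plus strand) encodes the receptor that carries ferritin to lysosomes for breakdown and release of its iron. It ran from 212 to 288 in donor macrophages, with a median of 240. GVHD host libraries held 164, 190, 204 and 170, all below the lowest donor library, while TCD host libraries held 247, 182 and 209 and overlapped the donor range. The log2 difference from GVHD host microglia was 0.43 ± 0.11, a 1.35-fold higher value (adjusted p = 0.00822, limma). From TCD host microglia it was 0.22 ± 0.12 and did not pass (adjusted p = 0.203, limma, 95% interval from -0.05 to 0.48).

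Tfrc (ENSMUSG00000022797, chr16:32608920-32632794, plus strand) encodes transferrin receptor 1, the main route of transferrin iron into cells. It was low in all sorted libraries. Donor macrophages held 5.67 to 10.2, with a median of 7.83, an estimated 69 to 238 reads per library. GVHD host libraries held 13.6, 16.7, 23.5 and 24.2, and TCD host libraries held 15.4, 23.2 and 30.3. Every donor library lay below every host library. Its log2 difference was -1.20 ± 0.18, with donor macrophages 2.29-fold lower (adjusted p = 0.000217).

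Slc11a1 (ENSMUSG00000026177, chr1:74375195-74386062, plus strand) encodes a metal transporter of the phagosome membrane of macrophages. Donor macrophages held 229 to 309, with a median of 249. The 4 GVHD host libraries held 221, 183.5, 179 and 167, and the 3 TCD host libraries held 208, 142 and 111. Library 1 was the highest of each group, and the highest GVHD host library, at 221, lay just below the lowest donor library. The log2 difference was 0.50 ± 0.11, 1.41-fold higher (adjusted p = 0.00214).

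Slc11a2 (ENSMUSG00000023030, chr15:100387898-100425072, minus strand) encodes the divalent metal transporter that moves iron out of endosomes. It was the only member not called between donor macrophages and GVHD host microglia, at 0.19 ± 0.15 (adjusted p = 0.331, limma, 95% interval from -0.13 to 0.51). Donor macrophages held 37.1 to 81.3, with a median of 39.6, GVHD host libraries 48.5, 42.2, 38.6 and 40.7, and TCD host libraries 74.7, 38.7 and 45.5. Library 1, the one with the lower API number, was the highest of each group. The libraries with the higher API number had means of 42.3 ± 8.61 (SD, n = 5), 40.5 ± 1.81 (SD, n = 3) and 42.1 ± 4.79 (SD, n = 2) in the 3 groups.

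Slc40a1 (ENSMUSG00000025993, chr1:45908068-45926523, minus strand) encodes ferroportin. It showed the largest difference among the 9 genes. Donor macrophages held 39.9 in library 1 and 69.1, 85.6, 90.5, 94.1 and 78.5 in libraries 2 to 6. GVHD host libraries held 345, 443, 487 and 382, and TCD host libraries 580, 437 and 498. The highest donor library was far below the lowest host library. The log2 difference was -2.50 ± 0.18, a 5.65-fold lower value in donor macrophages (adjusted p = 3.35e-07), and it ranged from -2.58 to -2.30 over the 23 alternatives tried.

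Hmox1 (ENSMUSG00000005413, chr8:75093621-75100589, plus strand) encodes heme oxygenase 1, the inducible enzyme that opens the heme ring. Donor macrophages held 55.3 to 83.4, with a median of 58.9. GVHD host libraries held 25.0, 27.2, 38.6 and 33.8, and TCD host libraries 33.7, 35.2 and 30.7. Donor libraries did not overlap either host group, and libraries 4 and 5 stood above the other donor libraries. Its log2 difference was 1.04 ± 0.15, 2.06-fold higher (adjusted p = 0.000140).

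Blvrb (ENSMUSG00000040466, chr7:27447978-27466144, plus strand) encodes biliverdin reductase B, also known as flavin reductase. It had the largest rise of the 9 genes. Donor macrophages held 64.4 to 88.0, with a median of 72.4, against 16.7, 22.0, 19.0 and 19.1 in GVHD host libraries and 21.6, 14.5 and 21.7 in TCD host libraries. The ranges of the host groups overlapped, and all donor libraries stood well above both. Its log2 difference was 1.89 ± 0.13, 3.70-fold higher (adjusted p = 2.52e-07).

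The largest fall and the largest rise were thus in the exporter Slc40a1 and in the reductase Blvrb. Markers of other cells moved with this comparison. The summed value of 6 border-associated macrophage markers was 647 to 1254 in donor macrophages and 29.7 to 62.3 in GVHD host microglia. Most of the donor sum was Mrc1, at 575 to 1024 against 15.1 to 47.1. Cd163, Lyve1, Pf4 and Cbr2 were also called higher, while Folr2 overlapped and was not called (-0.31 ± 0.41). The sum of 7 neutrophil markers was 19.8 to 608 in donor macrophages and 0.382 to 19.6 in GVHD host microglia. Red-cell RNA did not separate the groups: the sum of the 4 erythroid markers listed was 1.59 to 147 in donor macrophages and 3.06 to 49.2 in GVHD host microglia, with 1 high library on each side. The part of these cells in the differences was not tested. Donor library 1, the highest for neutrophil markers, and library 5 also correlated least with their own group. Leaving out either kept 8 genes called.

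Against host microglia of TCD mice, the same donor libraries gave 5 genes higher and 2 lower, beside 37% of all tested genes called, 18.4% higher and 18.6% lower. The groups of these 7 genes did not overlap, against 29.5% of all tested genes. Since this comparison shares the donor libraries with the one above, its values are set side by side and are no separate evidence. The log2 differences by limma were 1.77 ± 0.14 for Fth1 (adjusted p = 7.85e-07) and 1.17 ± 0.13 for Ftl1. They were -2.82 ± 0.20 for Slc40a1 (adjusted p = 3.03e-07), 7.07-fold lower, and -1.45 ± 0.20 for Tfrc. For Blvrb the difference was 1.89 ± 0.15, for Hmox1 0.92 ± 0.17 and for Slc11a1 0.86 ± 0.12. Slc11a2, at -0.01 ± 0.16, did not pass (adjusted p = 0.968). Without TCD host library 1, the one of uncertain group, 7 genes were again called.

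**Figure D2:**
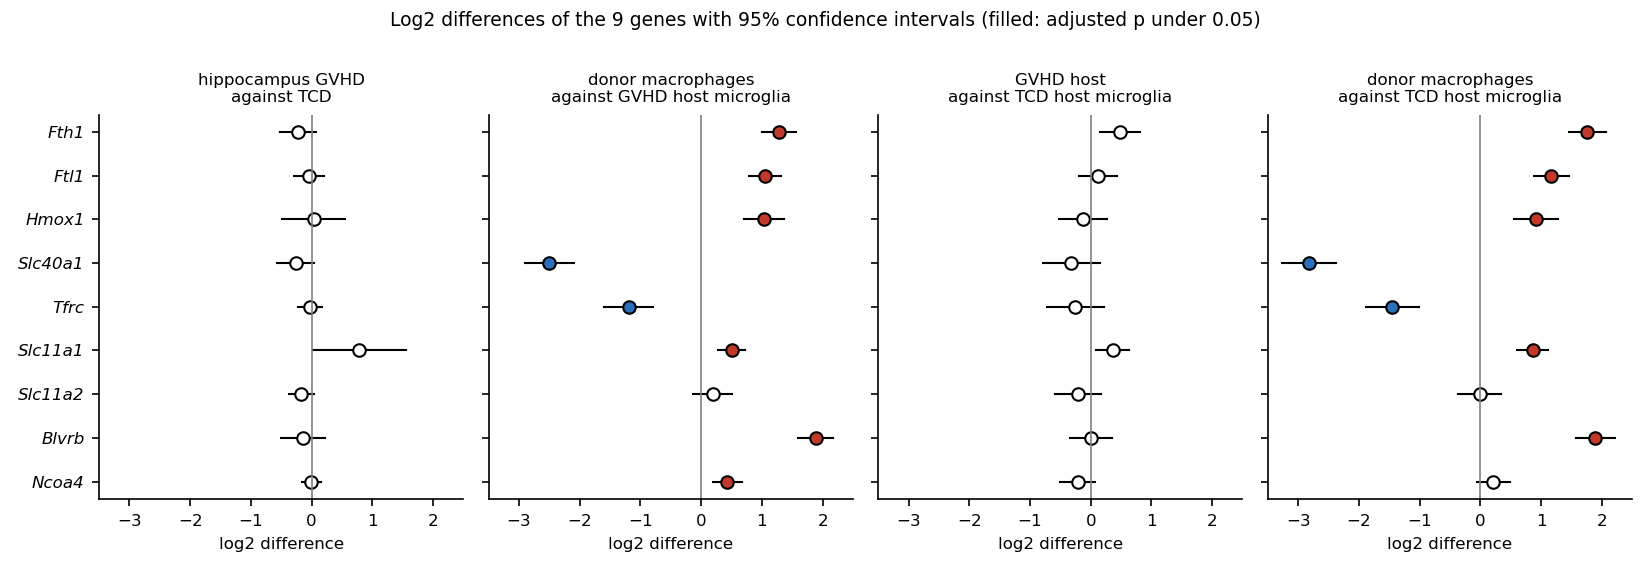
Log2 differences of the 9 genes (points) with 95% confidence intervals (lines) in the 4 comparisons. Filled points had an adjusted p under 0.05 (limma), red for higher and blue for lower in the first-named group. Slc40a1 lies farthest below 0, at -2.50 and -2.82, and Blvrb farthest above, at 1.89 in both donor comparisons, while no gene was called in hippocampus or between the microglial groups.

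Between host microglia of GVHD and TCD mice no member passed, 0 of 9 by limma with Benjamini-Hochberg adjustment, beside 0.107% of all tested genes, 14 calls that became 6 to 28 with 1 GVHD host library left out and 7 without TCD host library 2. At an unadjusted p under 0.05 there were 2 of 9, Fth1 and Slc11a1, against 6.85% of all tested genes, and for none of the 9 were the groups free of overlap, against 6.55%. The median log2 difference, GVHD minus TCD, was -0.12 over the 9 genes and -0.03 over all tested genes. These libraries are the same ones that served as host groups above. TCD host library 1, of uncertain group, held 179 summed over the 6 border-associated macrophage markers, against 30.8 and 33.1 in libraries 2 and 3. Over the 7 neutrophil markers TCD host libraries 1 to 3 held 111, 17.3 and 1.81. The part of these cells in this comparison was not tested.

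Fth1 was 0.48 ± 0.15 (adjusted p = 0.394, limma, unadjusted 0.00755), with a 95% interval from 0.15 to 0.81. GVHD libraries 1 and 3, at 1290 and 1369, lay below TCD library 3, at 1444. Slc11a1 was 0.36 ± 0.12 (adjusted p = 0.497, limma), with an interval from 0.09 to 0.63. Slc40a1 was -0.32 ± 0.22, with an interval from -0.79 to 0.15, and Tfrc -0.25 ± 0.22. The smallest difference was in Blvrb, at 0.01 ± 0.16, with an interval from -0.34 to 0.35. The remaining values were 0.12 ± 0.14 for Ftl1, -0.12 ± 0.18 for Hmox1, -0.20 ± 0.17 for Slc11a2 and -0.22 ± 0.13 for Ncoa4. For Slc40a1 the value was -0.01 at its nearest to 0 among the 18 alternatives and -0.51 at its farthest.

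In the hippocampal samples RNA comes from neurons, glia, vessels, choroid plexus and blood together. No member passed there between GVHD and TCD mice, 0 of 9 by limma, beside 0.479% of the 14404 genes tested. That share rested on 69 calls, which became 0 without GVHD library 3 or TCD library 2, 2 without GVHD library 1 and 123 without TCD library 3. At an unadjusted p under 0.05 there was 1 of 9, Slc11a1, against 17% of all tested genes. The groups did not overlap for 1 of 9, Slc11a2, against 24% of all tested genes. In tissue RNA a change in the number of cells of a type and a change in the RNA per cell cannot be told apart. Choroid plexus markers, 7 summed, held 995 to 3518 in GVHD and 12.4 to 69.6 in TCD hippocampus. Their part in the values of the members was not tested. The median log2 difference, GVHD minus TCD, was -0.04 over the 9 genes and 0.00 over all tested genes.

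Of the ferritin genes, Fth1 held 1386, 1446 and 1477 in GVHD libraries 1 to 3 and 1964, 1758 and 1361 in TCD libraries 1 to 3. The TCD values spanned the GVHD values, at -0.22 ± 0.13 on the log2 scale (adjusted p = 0.427, limma). Ftl1 held 223, 258 and 195 in GVHD and 234, 247 and 210 in TCD hippocampus, a log2 difference of -0.04 ± 0.11. Ncoa4 was the steadiest member, between 104 and 112 in all 6 libraries, with -0.01 ± 0.07.

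Of the importers, Tfrc held 97.9, 103 and 88.7 in GVHD and 108, 92.5 and 95.6 in TCD hippocampus, at -0.03 ± 0.09. Slc11a2 held 33.6, 35.0 and 30.7 in GVHD and 36.1, 39.9 and 35.9 in TCD hippocampus. All GVHD values lay below all TCD values, by 0.17 ± 0.09 on the log2 scale, and the difference did not pass (adjusted p = 0.376, limma). Slc11a1 was low, at 4.48, 7.95 and 2.58 in GVHD and 2.97, 2.67 and 1.35 in TCD hippocampus, an estimated 22 to 140 reads. Its log2 difference was 0.79 ± 0.34 (adjusted p = 0.283, limma), and 0.45 without GVHD library 2, which held the highest value.

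The exporter Slc40a1, Hmox1 and Blvrb were low in hippocampus. Slc40a1 held 11.3, 10.1 and 13.3 in GVHD and 12.5, 15.5 and 14.2 in TCD hippocampus, at -0.26 ± 0.13 (adjusted p = 0.357, limma). Hmox1 held 5.56, 5.28 and 4.99 in GVHD and 7.56, 3.44 and 5.08 in TCD hippocampus. Its 3 TCD libraries spread more widely than its GVHD libraries, and the log2 difference was 0.03 ± 0.22. Blvrb held 4.54, 5.79 and 4.63 against 4.59, 5.88 and 6.42, at -0.14 ± 0.16. The sum of the 5 erythroid markers listed was 182 to 234 in GVHD and 198 to 219 in TCD hippocampus, so red-cell RNA was present in both groups.

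Scaled by transcript length, the ferritin chains changed order between tissue and sorted cells. In hippocampus Fth1 held 1546 ± 49.9 per kb of transcript (SD, n = 3) in GVHD mice and 1824 ± 330 (SD, n = 3) in TCD mice, and Ftl1 held 233 ± 32.6 and 238 ± 19.6 per kb. In donor macrophages Ftl1 was the highest member, at 9691 ± 1082 per kb (SD, n = 6), above Fth1 at 4181 ± 448. In the same order Ftl1 and Fth1 were at 4649 ± 1225 and 1691 ± 302 per kb (SD, n = 4) in GVHD host microglia and at 4100 ± 1063 and 1202 ± 345 (SD, n = 3) in TCD host microglia. The ratio of Ftl1 to Fth1 within a library, both per kb, was 0.115 to 0.171 over the 6 hippocampal libraries and 2.08 to 3.90 over the 13 sorted ones. The tables were normalised separately, but a ratio within 1 library does not depend on that scaling. It may still depend on how reads shared with the copy Ftl1-ps1 were divided, which is not known for either table. That copy held 8.38 to 16.3 in the hippocampal libraries and 407 to 1599 in the sorted ones. Its part in the gap between tissue and sorted cells was not tested.

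Below the ferritins, the order of the other members by level per kb differed between donor and host cells. In donor macrophages Slc11a1 came next, at 112 ± 14.3 per kb, then Blvrb at 71.8 ± 7.79, Ncoa4 at 60.5 ± 6.29, Hmox1 at 42.1 ± 8.57, Slc40a1 at 22.6 ± 5.91, Slc11a2 at 16.1 ± 5.84 and Tfrc at 1.65 ± 0.325 (SD, n = 6). The SD ranges of Blvrb and Ncoa4, and those of Slc40a1 and Slc11a2, overlapped. In GVHD host microglia Slc40a1 came next after the ferritins, at 123 ± 18.7 per kb, then Slc11a1 at 81.0 ± 9.95, Ncoa4 at 44.8 ± 4.49, Hmox1 at 19.9 ± 3.97, Blvrb at 18.7 ± 2.10, Slc11a2 at 14.1 ± 1.40 and Tfrc at 3.99 ± 1.06 (SD, n = 4). Hmox1 and Blvrb did not differ beyond their SD there. TCD host microglia had the same order of means. In hippocampus the members next after the ferritins were Ncoa4, at 26.4 ± 1.05 in GVHD and 26.5 ± 0.796 in TCD mice, and then Tfrc, at 19.7 ± 1.44 and 20.2 ± 1.64 (SD, n = 3). Tfrc was the lowest of the 9 in the sorted groups and stood above 5 of them in tissue.

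Ratios between members within a library, all per kb, set storage beside uptake and heme breakdown beside export. Fth1 over Tfrc was 2273 to 3199 in donor macrophages, 306 to 567 in GVHD host microglia, 250 to 275 in TCD host microglia and 74.2 to 100.02 in the hippocampal libraries. The sorted groups did not overlap in this ratio, but between the host groups Fth1 and Tfrc each overlapped and neither was called. How often the ratios of other gene pairs separate the groups was not examined. Hmox1 over Slc40a1 was 1.51 to 3.05 in donor macrophages, 0.132 to 0.190 in GVHD host microglia and 0.125 to 0.173 in TCD host microglia. Per kb, Hmox1 mRNA thus exceeded Slc40a1 mRNA in all donor libraries and in no host library. Without the scaling by transcript length it did so in donor library 1 only (56.7 against 39.9). In hippocampus the ratio per kb was 0.477 to 1.30. These ratios restate the values above and were not tested.

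**Figure D3:**
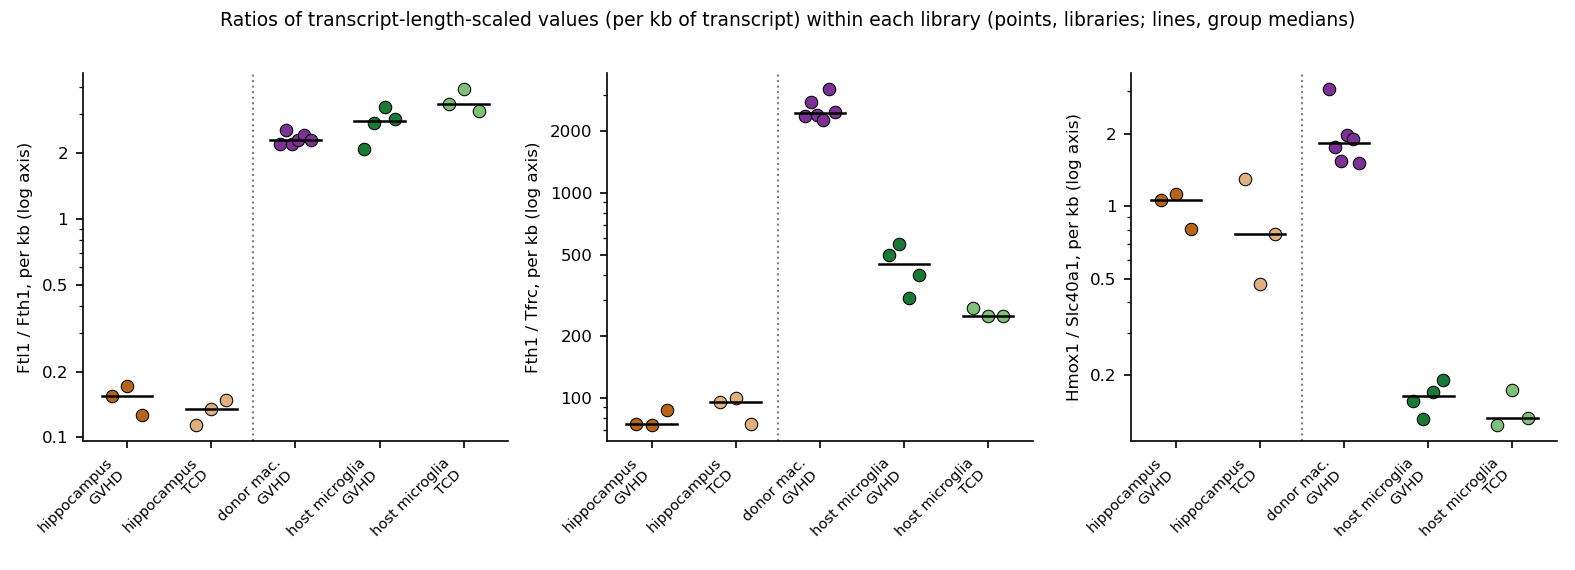
Ratios of Ftl1 to Fth1, Fth1 to Tfrc and Hmox1 to Slc40a1 within each library, each value scaled per kb of transcript, on log axes. Points are libraries, lines are group medians and dotted lines separate the 2 tables. Ftl1 over Fth1 lies under 1 in hippocampus and above 2 in sorted cells, and Hmox1 over Slc40a1 lies above 1 in donor macrophages only among the sorted groups.

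The other genes of iron and heme metabolism were taken from 6 lists. Of their 56 tested genes, 12 were higher and 9 lower in donor macrophages than in GVHD host microglia, with a median log2 difference of 0.03 against 0.04 over all tested genes. The share called, like the median, was near that of all tested genes (38.6%). No list was tested as a set.

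In the list of heme uptake, export and breakdown, 5 of 8 tested genes were higher, 2 lower and 1 not called, with a median of 1.00. Over all tested genes 19.4% were higher and 19.2% lower. Spic, a transcription factor of macrophages that recycle red cells, held 16.5 to 18.3 in the 6 donor libraries and 0.637 to 1.09 in the 4 GVHD host libraries. Its log2 difference was 3.37 ± 0.15 (adjusted p = 8.60e-09, limma). Blvra, the other biliverdin reductase, was higher by 0.72 ± 0.12, and the other 3 higher genes were Cd163, the hemoglobin-haptoglobin receptor, at 2.70 ± 0.65, Slc48a1, a lysosomal heme transporter, at 1.34 ± 0.25, and Flvcr1, a heme exporter, at 1.29 ± 0.27. Cd163 is also one of the border-associated macrophage markers given above. Abcg2, an efflux pump that also carries porphyrins, was lower by 1.31 ± 0.12 (61.4 in GVHD host microglia, 24.7 in donor macrophages). Slc46a1, a folate and heme transporter, was at -1.80 ± 0.19 (120 and 34.0). Hmox2, the constitutive heme oxygenase, was not called, at -0.02 ± 0.10.

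Among the genes of iron transport and its reductases, 1 of 11 was higher and 2 were lower, with a median of -0.07. The shares over all tested genes were 19.4% and 19.2%. Steap3, an endosomal ferric reductase, held 5.49 ± 2.03 (SD, n = 6) in donor macrophages and 1.22 ± 0.358 (SD, n = 4) in GVHD host microglia, a log2 difference of 1.55 ± 0.26. Slc25a37, the mitochondrial iron importer, was at -1.51 ± 0.20, and Slc39a8, a zinc and iron transporter, at -0.77 ± 0.16. Trf, which encodes transferrin, was high in all sorted groups, at 2592 ± 283 in donor macrophages and 2755 ± 311 in GVHD host microglia, and was not called.

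Of 6 genes that sense or chaperone iron, 3 were higher and 1 lower, beside 19.4% and 19.2% of all tested genes. Fbxl5, the iron-sensing subunit that marks iron regulatory protein 2 for breakdown, was higher by 0.72 ± 0.08, at 178 ± 20.7 in donor macrophages and 106 ± 11.5 in GVHD host microglia. Aco1, which encodes iron regulatory protein 1, was higher by 0.57 ± 0.10, and Pcbp2, an iron chaperone, by 0.46 ± 0.12. Herc2, a ubiquitin ligase, was at -1.23 ± 0.14. Ireb2, which encodes iron regulatory protein 2, was not called, at -0.36 ± 0.15 (adjusted p = 0.0713, limma).

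Few genes of heme synthesis and iron-sulfur cluster assembly were called, beside 38.6% of all tested genes called in either direction. Of 10 heme synthesis genes only Uros was called, at -0.69 ± 0.16, and of 11 cluster assembly genes Hscb was higher, by 0.49 ± 0.14, and Isca1 lower, at -0.43 ± 0.10. In the list of the Nrf2 and Bach1 axis, which regulates Hmox1 and the ferritins, 2 of 10 were higher and 2 lower. That was near the shares over all tested genes, 19.4% higher and 19.2% lower. Nfe2l2, which encodes Nrf2, was higher by 0.66 ± 0.13, at 494 ± 103 against 304 ± 23.5, and Srxn1, a target of it, by 0.56 ± 0.15. Gclc, which starts glutathione synthesis, was at -1.13 ± 0.18. Mafg, a partner of both factors, was also lower, at 52.9 ± 14.1 (SD, n = 6) in donor macrophages against 102 ± 11.2 (SD, n = 4). Bach1 itself was not called, at 0.05 ± 0.17.

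**Figure D4:**
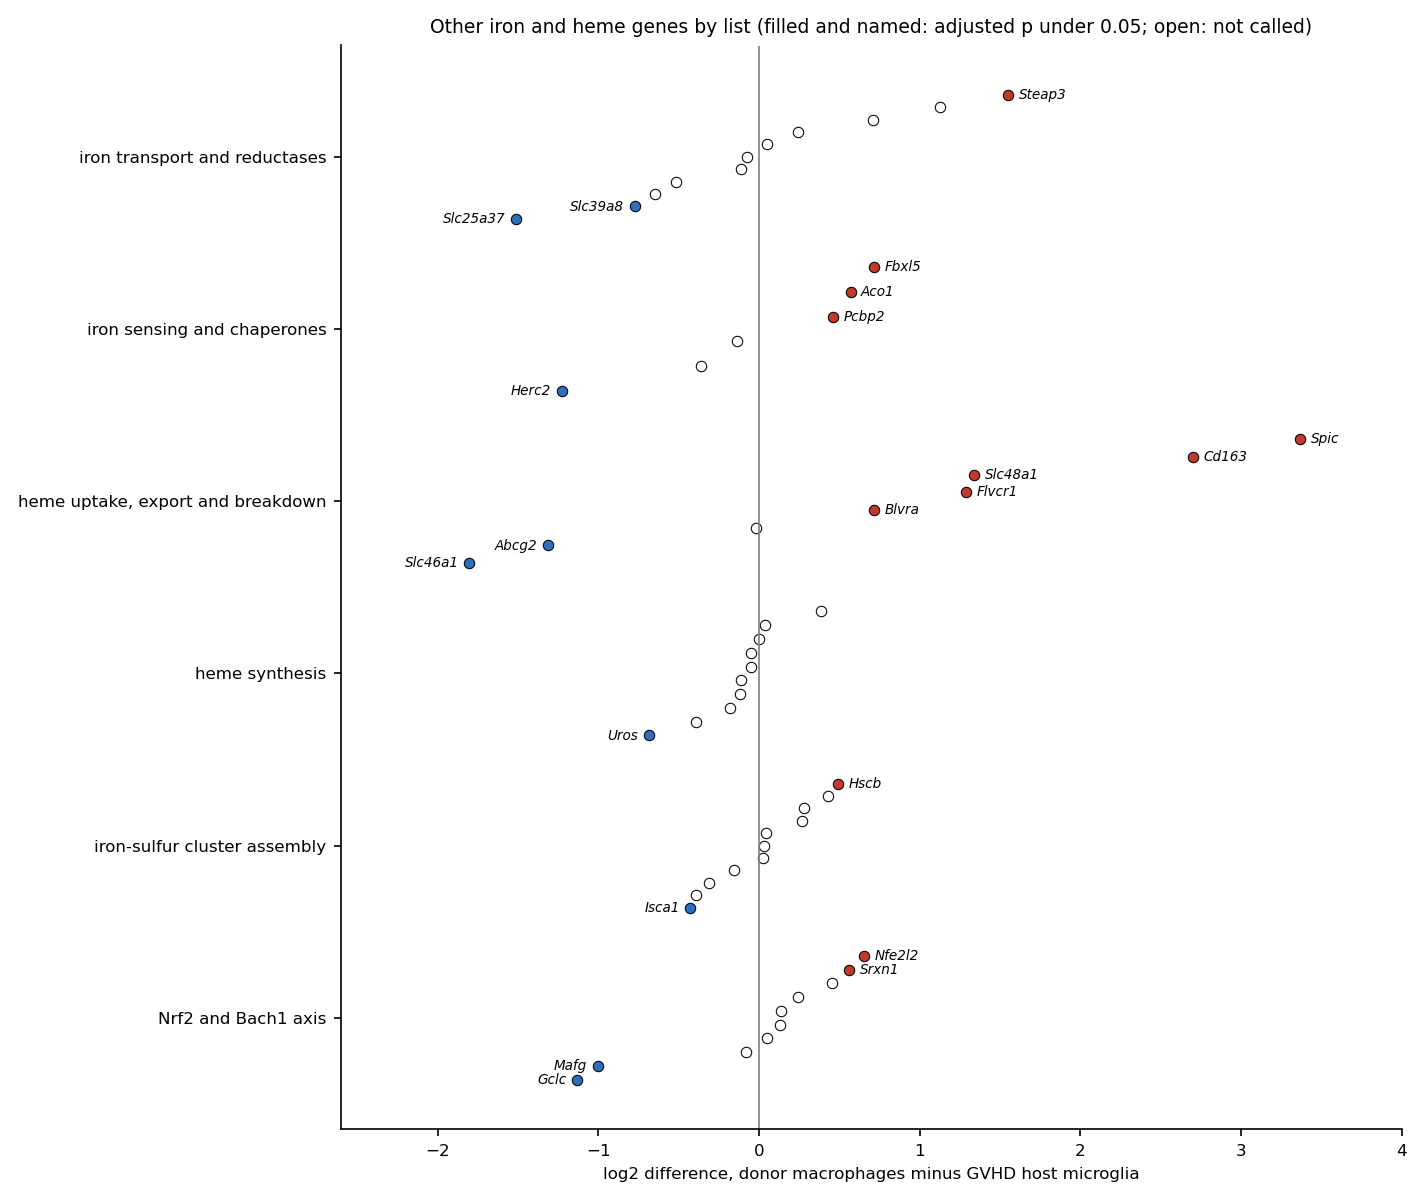
Log2 differences, donor macrophages minus GVHD host microglia, of the 56 tested genes of 6 iron and heme lists. Filled and named points had an adjusted p under 0.05 (limma), red for 12 higher and blue for 9 lower genes, and open points were not called. Spic lies farthest right, at 3.37, and Slc46a1 farthest left, at -1.80.

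Against TCD host microglia, 12 of the 56 list genes were higher and 11 lower, against 18.4% and 18.6% of all tested genes, with a median of 0.01. The donor libraries are again the same. Without TCD host library 2 the count was 14 in place of 23. Calls over all tested genes also fell in that fit, to 1860 higher and 1949 lower from 2408 and 2437. The 8 genes with the smallest p were Spic (3.44 ± 0.16), Abcg2 (-1.39 ± 0.13), Slc46a1 (-1.82 ± 0.21), Herc2 (-1.04 ± 0.15), Blvra (0.90 ± 0.13), Slc25a37 (-1.43 ± 0.22), Fbxl5 (0.55 ± 0.09) and Slc39a8 (-1.10 ± 0.18). Cp, the ferroxidase ceruloplasmin that works beside ferroportin, was also called here, at 2.01 ± 0.46 (adjusted p = 0.00428, limma). Its values were 149 to 200 in donor macrophages, 67.1 to 159 in GVHD host microglia and 10.6 to 83.6 in TCD host microglia. It was singled out after its values were seen.

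Between GVHD and TCD host microglia 0 of the 56 list genes passed by limma, with 4 at an unadjusted p under 0.05, against 0.107% and 6.85% of all tested genes. Among those with the smallest p were Cp at 1.30 ± 0.50 (adjusted p = 0.612, limma) and Steap3 at -0.72 ± 0.31 (adjusted p = 0.708, limma). Neither passed, and Cp overlapped between the groups. The part of the macrophage and neutrophil markers of TCD host library 1, given above, was not tested here either.

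In hippocampus 0 of 61 list genes passed by limma, with 8 at an unadjusted p under 0.05, against 0.479% and 17% of all tested genes. The 3 with the smallest p all had higher GVHD values. Steap2, a metal reductase, held 37.1, 20.7 and 43.4 in GVHD and 12.2, 14.0 and 15.1 in TCD hippocampus, at 1.18 ± 0.24 (adjusted p = 0.0696, limma). Without GVHD library 2 its difference was 1.49 and passed (adjusted p = 0.00519, limma). Nfe2l2 was at 0.50 ± 0.11 (adjusted p = 0.0841, limma) and Hfe, a regulator of iron uptake, at 1.03 ± 0.24 (adjusted p = 0.0867, limma). None of these 3 overlapped between the groups, and neither did 12 of the 61 list genes, against 24% of all tested genes. The sum of 7 choroid plexus markers was 995 to 3518 in GVHD and 12.4 to 69.6 in TCD hippocampus, lowest of the GVHD libraries in library 2, and that of 6 oligodendrocyte markers was 4566 to 6295 and 3305 to 4940. Their part in these differences was not tested.

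For each member with a called log2 difference of at least 1 in size, the 3 genes with the most similar profile over the 13 sorted libraries were found. Likeness was the root mean square difference between log2 values after each gene's mean was subtracted. It was 0.209 for Prdx1, 0.226 for Fam213a and 0.230 for Prdx6 with Fth1. For Ftl1 the nearest were Nap1l1 (0.164), Bcl2a1b (0.196) and Dmac1 (0.204), and for Hmox1 Nmrk1 (0.195), Mta3 (0.217) and Cdkn1b (0.218). The profile of Slc40a1 was nearest to Ctsf (0.176), Ltc4s (0.180) and Gmpr (0.184), that of Tfrc to Abcg2 (0.202), Casc4 (0.226) and Commd8 (0.227), and that of Blvrb to Mpp1 (0.159), Pqlc1 (0.213) and Bst2 (0.216). Likeness is a description over libraries that share their preparation, and much of it rests on the difference between donor and host cells.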

How the data were processed

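Per the labels, RNA was sequenced from hippocampus and from sorted brain cells. The deposited values are normalised counts, treated as a signal, since the authors' scaling method and gene annotation are not given in the sources used here. The submitters' processing notes name cutadapt 1.9, STAR 2.5.2a, RSEM 1.2.30 and the genome build GRCm38. Totals per hippocampal library were 982114.4 to 1078635.6 and per sorted library 890564.5 to 1090630.5. Most values (82.9% to 83.9%, and 69.3% to 73.8%) were whole multiples of 1 step, within 0.02 of a step. Total over step gave the estimated reads, but whole counts were not recovered, so no count model was used. Low values rest on few reads.

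Tests were two-sided, by limma (version 3.58.1, R version 4.3.3) on log2(value + 1) with its variance trend. A gene was tested where 3 or more libraries of its table reached a value of 1, which left 14404 and 13086 genes. P-values were adjusted by Benjamini-Hochberg over all tested genes of a comparison and called under 0.05. The hippocampus model held the groups. The sorted-cell model held all 13 libraries, with 3 groups and the API number. All 9 members passed the filter in both tables. Scripts were tested on simulated data. The tables were normalised separately, so tests ran within 1 table.

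Members and gene lists were chosen with earlier results of these data known. Named genes were all members, up to 8 called list genes of smallest p per comparison, or 3 where fewer than 3 were called, and for members called with a log2 difference of at least 1 the 3 genes nearest in profile, predicted genes passed over. Other list genes were picked as examples with their values known. For 1 list gene that the rule names, the value is not reported here.

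Replicate numbers were checked by correlating deviations from group means across genes. Donor and GVHD host libraries matched by API number and description number correlated at 0.394, 0.362, 0.166 and 0.280, and donor and TCD host libraries of the same title number at 0.585, 0.308 and 0.415. Blocks by these numbers were used only in alternatives, and the main models held no pairing. The API number was not removed before this check, so the check cannot tell pairing from a shared API number. No label states a pairing, and donor and TCD host cells came from different mice. Per kb values use the length of 1 principal transcript per gene in GENCODE. Protein sequences were not used here.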

Additional observations from a re-analysis of the deposited data

How the results depend on the processing

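No alternative changed the count of members called by over 1.5 times. The count was 7 to 8 over 23 alternatives for donor macrophages against GVHD host microglia, 7 in all 20 against TCD host microglia, and 0 in all 16 in hippocampus and all 18 between microglial groups. Alternatives were the pseudocount (0.5 or 5), the filter (none, or at least 5), TMM rescaling, quantile normalisation, no variance trend, each library left out, a replicate block, the API covariate or the higher API number alone, only the compared groups, and a GC correction in hippocampus. Leaving TCD host library 1 out of the first comparison was added after the data were seen.

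With the title number as a replicate block, donor macrophages against GVHD host microglia gave 7 called, with Ncoa4 at 0.35 and not called (adjusted p = 0.0585, limma). Donor and GVHD host libraries of the same title number did not all correlate positively (0.394, 0.170, -0.02 and 0.02). Nor did those in hippocampus (-0.163, -0.04 and -0.183) or between microglial groups (0.222, -0.02 and -0.02), where the block left 0 members called. The block by description number, for donor against GVHD host libraries, changed no call (8 called). For donor against TCD host libraries the only block was the title number, and it changed no call (7 called). That fit also included the GVHD host libraries.

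Signs turned only in members that were not called. In hippocampus, quantile normalisation gave 0.054 for Ftl1, -0.064 for Hmox1, 0.0026 for Tfrc and 0.045 for Ncoa4, and the GC correction gave 0.058 for Ftl1, with or without the block. Leaving out 1 library moved Ftl1 over -0.14 to 0.061, Hmox1 over -0.20 to 0.27, Tfrc over -0.078 to 0.032 and Ncoa4 over -0.037 to 0.019. Between microglial groups Blvrb ranged over -0.20 to 0.14 with 1 library left out. Against TCD host microglia Slc11a2 was 0.024 with only the compared groups and -0.11 to 0.045 with 1 library left out. The cause was not tested.

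The number of all tested genes called also moved. In hippocampus the 69 calls became 0 without the variance trend (2343 at an unadjusted p under 0.05), 39 with quantile normalisation, 16 with the block and 13 with block and GC correction. Leaving out GVHD library 3 or TCD library 2 gave 0 (1828 and 1967 unadjusted), leaving out GVHD library 1 gave 2, and leaving out TCD library 3 gave 123. Between microglial groups the 14 calls became 0 with only the compared groups (978 unadjusted), 1 with the higher API number alone and 2 with the block. They became 6 without GVHD host library 1, 2 or 4, 28 without GVHD host library 3 and 7 without TCD host library 2. Slc11a1 was not tested in hippocampus at the stricter filter.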
